A study of Homo sapiens with 4 samples.

Results

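The aryl hydrocarbon receptor axis was followed through 9 genes chosen by name. They are the receptor AHR, its DNA-binding partner ARNT, the repressors AHRR and TIPARP, and the classic target genes CYP1A1, CYP1A2, CYP1B1, ALDH3A1 and UGT1A6. The comparison was between HepG2 cells (a human hepatic tumour line, hepatoblastoma in the labels) given 20 µM isoginkgetin for 24 h (2 libraries of polyadenylated RNA) and the same cells given the solvent DMSO (2 libraries). Isoginkgetin is a plant biflavonoid, and the series title places the treatment in a study of autophagic cell death. All cells are of 1 cancer line, and the labels do not say whether the replicates were separate cultures, so the spread behind the p-values is that between these libraries and may be technical.

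The receptor is a ligand-activated transcription factor of the bHLH-PAS family that waits in the cytosol with HSP90 and co-chaperones. A ligand, such as dioxin, a polycyclic hydrocarbon, a tryptophan metabolite or some flavonoids, sends it to the nucleus, where it pairs with ARNT on xenobiotic response elements. In liver cells this switches on enzymes that oxidise and conjugate foreign compounds, and also AHRR and TIPARP, which limit the response.

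The only values used are those of the authors' deposited table of their own comparison. Each of its 8727 rows is a gene with an adjusted p below 0.05, given with the mean of its normalized counts across libraries, a log2 fold change, the standard error (SE) of that change and p-values. Single libraries are not analysed here, so their depth is unknown, and neither a value per library nor the overlap of the groups is shown. Which group is in the numerator is not named in the headers. A positive change is taken to mean higher in isoginkgetin than in DMSO cells, by the common convention, and the opposite order would turn every direction given here.

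Of the 9 genes, 4 had a row in the authors' deposited table, and all of these were higher in isoginkgetin cells: AHR, TIPARP, CYP1A1 and CYP1A2. The p-values of the table imply that 20024 genes were tested, of which 43.6% were called in either direction, and so the members' share of 44.4% is close to the background. By direction, 4 of 9 members were higher against 22.4% of the genes tested, and 0 of 9 were lower against 21.1%. At 2-fold or more, 3 of 9 members were higher, against 6.26% of the genes tested, and 0 of 9 were lower, against 7.43%. The median log2 fold change of the 4 called members was 1.84, against 0.21 over all rows, and without CYP1A2, which has the lowest level, it was 1.03. ARNT, AHRR, CYP1B1, ALDH3A1 and UGT1A6 had no row under these or older symbols, and whether they were tested, or how they moved, is not known.

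The 3 called genes downstream of the receptor are shown here by the 250 bases before their transcription start (RefSeq, GRCh38.p14, each 5′ to 3′ on the gene's own strand), because the receptor acts through short elements in such DNA. Capitals mark the letters GCGTG on either strand (CACGC when read on the strand shown), the core of the xenobiotic response element. CYP1A1 lies on the minus strand at chr15:74725529-74725778. CYP1A2 lies on the plus strand at chr15:74748595-74748844. TIPARP, at the most upstream of its 3 starts in the RefSeq table, lies on the plus strand at chr3:156674340-156674589.
CYP1A1: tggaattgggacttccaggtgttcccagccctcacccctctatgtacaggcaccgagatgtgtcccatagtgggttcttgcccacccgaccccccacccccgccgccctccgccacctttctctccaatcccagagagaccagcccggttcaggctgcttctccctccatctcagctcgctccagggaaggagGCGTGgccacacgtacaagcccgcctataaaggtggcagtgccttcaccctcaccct
CYP1A2: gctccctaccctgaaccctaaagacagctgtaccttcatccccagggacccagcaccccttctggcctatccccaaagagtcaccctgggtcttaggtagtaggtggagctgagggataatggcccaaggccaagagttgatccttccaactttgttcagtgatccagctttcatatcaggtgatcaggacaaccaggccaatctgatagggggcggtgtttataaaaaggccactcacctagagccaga
TIPARP: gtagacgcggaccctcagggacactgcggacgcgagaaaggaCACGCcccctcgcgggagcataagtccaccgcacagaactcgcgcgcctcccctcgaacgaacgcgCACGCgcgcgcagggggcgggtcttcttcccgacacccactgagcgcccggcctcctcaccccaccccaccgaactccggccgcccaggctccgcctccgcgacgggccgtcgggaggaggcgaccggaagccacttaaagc

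The CYP1A1 window held 1 core element, 57 to 53 bases before the start. The TIPARP window held 2, at 208 to 204 and at 142 to 138 bases before the start, and the windows of CYP1A2 and AHR held none. Such letters are common: 31.9% of the windows of all 27305 genes in the RefSeq table held the core, as did 44.7% of the 6057 windows whose gene had a row in the authors' deposited table. The longer form TNGCGTG, which contains the core, was in 4.53% of all windows. It was found before AHRR and UGT1A6, both without a row, and before none of AHR, TIPARP, CYP1A1 and CYP1A2. GC content differed between the windows, at 71.6% for TIPARP, 66.8% for AHR, 62.4% for CYP1A1 and 52.8% for CYP1A2. CYP1A1 and CYP1A2 stand head to head, with 23.3 kb between their starts, and this stretch, known for response elements that can serve both genes, lies mostly outside the windows.

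**Figure D1:**
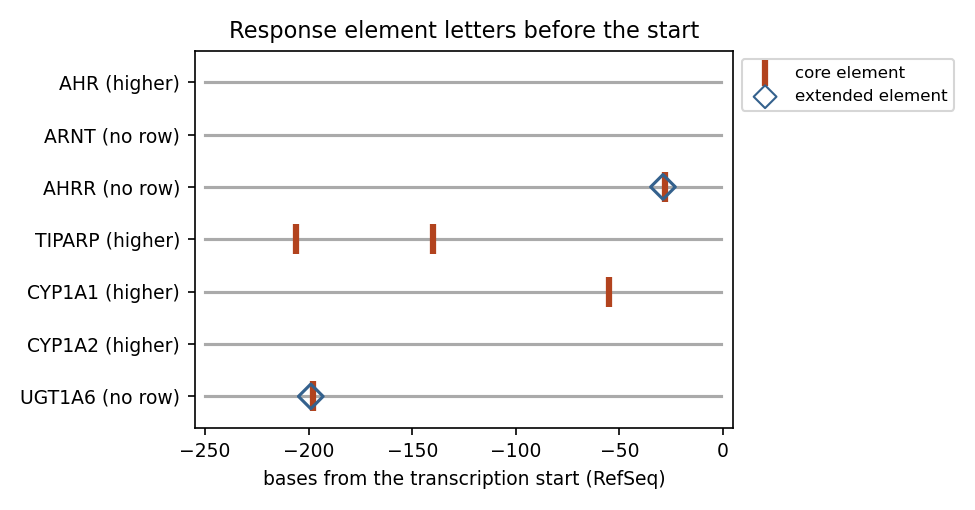
Positions of response element letters in the 250 bases before the transcription start of the 7 members in the RefSeq table; the x axis is the distance from the start in bases, red bars mark the core GCGTG and blue diamonds the longer TNGCGTG. TIPARP held 2 core elements, CYP1A1, AHRR and UGT1A6 held 1 each, and AHR, ARNT and CYP1A2 none.

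AHR, the receptor gene itself, was about 2-fold higher in isoginkgetin cells. In the authors' deposited table its mean normalized count was 1431 and its log2 fold change 1.03 (SE 0.09, adjusted p = 1.37e-26 from the authors' test), a fold of 2.04 with a 95% interval of 1.79 to 2.32 from that SE. If that fold is read as the ratio of the group means, the mean was 1919 normalized counts in isoginkgetin libraries and 942 in DMSO libraries. Of the 3055 other rows of the authors' deposited table within a factor of 2 of its level, 165 (5.40%) had a higher log2 fold change. By the GENCODE 29 annotation, 32.3% of the exonic bases of AHR lie under exons of other genes, mostly the clone-named AC019117.2 on the same strand. How reads shared between genes were counted is not given in the sources used here.

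TIPARP encodes a mono-ADP-ribosyltransferase that is induced by the receptor and modifies it, limiting its activity. In the authors' deposited table its mean normalized count was 450.4 and its log2 fold change 0.73 (SE 0.16, adjusted p = 5.65e-06 from the authors' test), a fold of 1.66 (95% interval 1.34 to 2.06). Read in the same way, this fold gives means of 563 normalized counts in isoginkgetin libraries and 338 in DMSO libraries. It was the smallest change of the 4 called members, and 348 of the 2441 other rows of like level (14.3%) in the authors' deposited table lay above it.

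CYP1A1, the P450 enzyme used most widely as a readout of receptor activity, showed the largest change among the 3 members with a narrow interval. In the authors' deposited table its mean normalized count was 267 and its log2 fold change 2.65 (SE 0.22, adjusted p = 2.94e-33 from the authors' test), a fold of 6.29 (95% interval 4.67 to 8.48). This fold gives means of 461 normalized counts in isoginkgetin libraries and 73.3 in DMSO libraries. Of the 1798 other rows of like level in the authors' deposited table, 10 (0.556%) had a higher log2 fold change, and 4.14% of all rows did.

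CYP1A2, the hepatic P450 that oxidises caffeine, was far less abundant and its fold is poorly fixed. In the authors' deposited table its mean normalized count was 19.0 and its log2 fold change 7.46 (SE 2.68, adjusted p = 7.3e-06 from the authors' test). It ranked 17 of the 8727 rows from the top by log2 fold change, yet the interval from its SE runs from 2.21 to 12.7 on the log2 scale. The mean corresponds to 76.1 normalized counts summed over the 4 libraries. If all of them lay in the isoginkgetin libraries, their mean would be 38.0, and a fitted fold against DMSO libraries at or near 0 is not a measured ratio. Its estimate was 2.79 SEs from 0, whereas its p-value corresponds to 4.80, a gap that the other 3 members did not show (10.8 and 11.0 for AHR, 4.67 and 4.86 for TIPARP, 12.1 and 12.3 for CYP1A1). Such a gap was general for rows of low level in the authors' deposited table, where the median ratio of these 2 measures was 0.585 below a mean of 30. The 873 rows with the lowest levels also leaned upwards as a whole, with a median log2 fold change of 1.49.

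**Figure D2:**
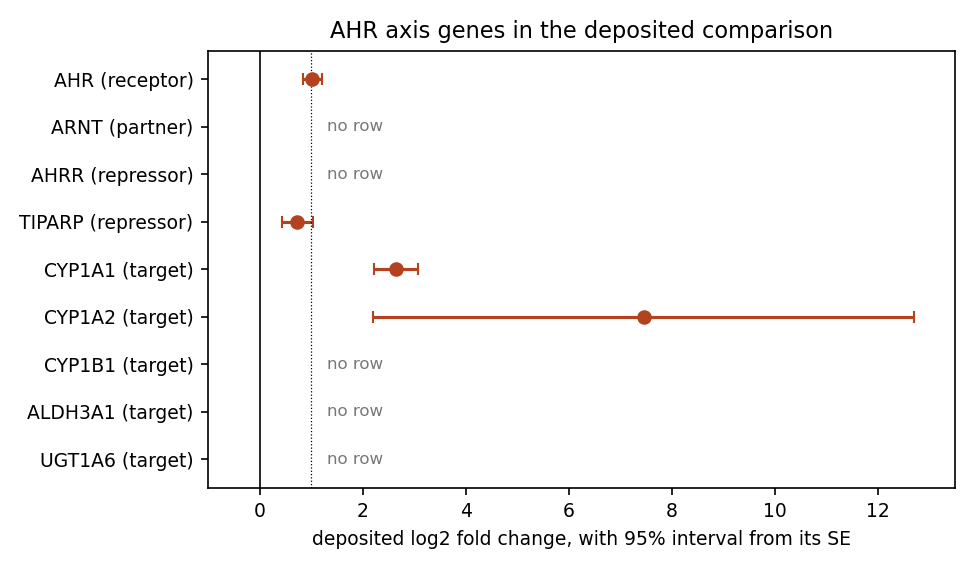
Log2 fold change in the authors' deposited table (x axis, isoginkgetin over DMSO as read here) for each of the 9 genes (y axis, with its role); points are the estimates, bars are 95% intervals from the SE and the dotted line marks a 2-fold increase. AHR, TIPARP and CYP1A1 have narrow bars above 0, CYP1A2 has a bar from 2.21 to 12.7, and 5 genes have no row.

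In order of change, CYP1A2 stood above CYP1A1, AHR and TIPARP. CYP1A1 exceeded AHR by 1.63 on the log2 scale (95% interval 1.16 to 2.10) with the 2 SEs taken as independent. The steps from AHR to TIPARP (0.29, 95% interval -0.07 to 0.65) and from CYP1A2 to CYP1A1 (4.80, 95% interval -0.46 to 10.1) were within their errors. By level per length, the order was different. Mean normalized counts per kb of exon (GENCODE 29 lengths) were 177 for AHR, 89.2 for TIPARP, 77.8 for CYP1A1 and 6.97 for CYP1A2, as averages over all libraries. No spread between libraries can be given for these levels.

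**Figure D3:**
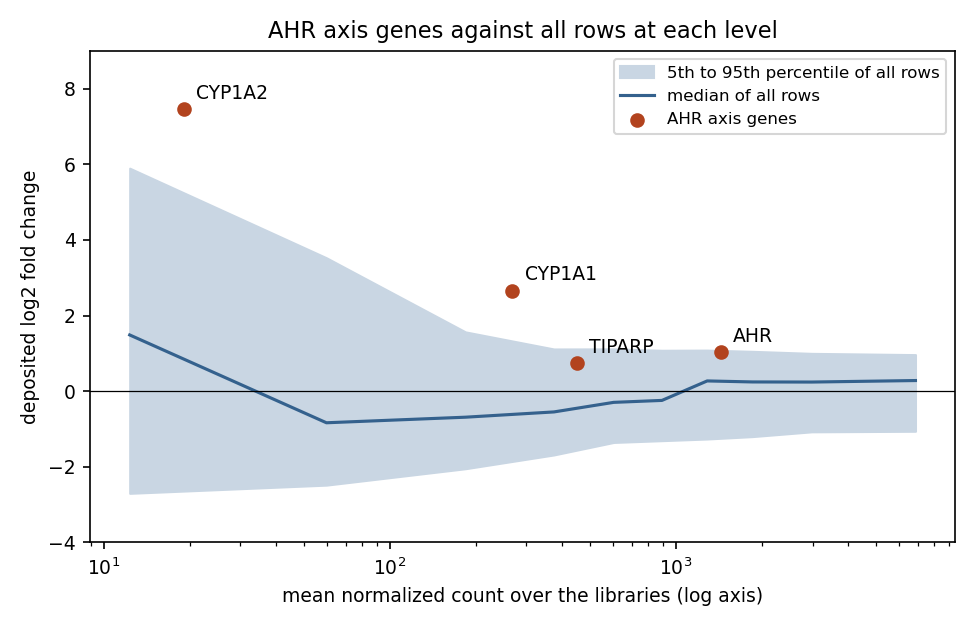
Log2 fold change (y axis, authors' deposited table) against the mean normalized count over the libraries (x axis, log scale) for AHR, TIPARP, CYP1A1 and CYP1A2 (red points); the blue line and band give the median and the 5th to 95th percentiles of all rows in 10 bins of equal size. CYP1A1 and CYP1A2 lie above the band, and AHR and TIPARP within it.

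UGT1A6, a phase II enzyme that attaches glucuronic acid, had no row, but a gene of the same locus did. The UGT1A genes each have their own first exon and share the rest. By the GENCODE 29 annotation, 64.4% of the exonic bases of UGT1A6 lie under exons of other genes, so that a count for any one of them depends on how shared reads were treated, which is not given in the sources used here. UGT1A1, the bilirubin-conjugating member, had a mean normalized count of 82.0 and a log2 fold change of 1.15 (SE 0.38) in the authors' deposited table. It is named here after its value was seen.

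Other genes around the receptor moved in both directions. Of 28 further genes reported to respond to the receptor, 14 (50%) had a row, which is near the 43.6% of all genes tested. Whether the listed genes without a row were tested is not known, here and for the lists below. By direction, 10 of 28 were higher and 4 lower, against 22.4% and 21.1% of the genes tested. At 2-fold or more, 5 of 28 were higher and 2 lower, against 6.26% and 7.43%. The median log2 fold change of those with a row was 0.59, against 0.21 over all rows. In the authors' deposited table GSTA1, a glutathione transferase with near-identical relatives that may share its reads, stood at 2.39 (SE 0.32). TXNRD1, a thioredoxin reductase known mainly as an NRF2 target, stood at 1.29 (SE 0.05) in the same comparison of the authors' deposited table. AREG, a ligand of the EGF receptor with a near-identical copy in some builds, had a log2 fold change of 1.26 (SE 0.25) in the authors' deposited table. NQO1, the quinone reductase shared by the receptor's and NRF2's target sets, was at 0.57 (SE 0.05) there. NQO1 was picked out after its value was seen.

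Of 10 genes that hold the receptor in the cytosol or turn it over, 5 (50%) had a row, 4 higher and 1 lower, and none reached 2-fold. Over all genes tested, 43.6% had a row, 22.4% higher and 21.1% lower. The authors' deposited table gives 0.50 (SE 0.10) for TBL3, reported in the ubiquitin ligase assembled around the receptor, 0.34 (SE 0.04) for the chaperone HSP90AB1 and -0.40 (SE 0.06) for the kinase SRC. Of 17 coregulators, 12 (70.6%) had a row, 6 higher and 6 lower, with a median of -0.04. The corepressor NCOR1 had a log2 fold change of -0.69 (SE 0.06) in the authors' deposited table. RB1, the retinoblastoma protein and a partner of the receptor, had a log2 fold change of -0.73 (SE 0.10) in the authors' deposited table. Of 13 other bHLH-PAS factors, 4 (30.8%) had a row, 2 in each direction. The authors' deposited table gives -0.78 (SE 0.15) for ARNTL2 and -0.63 (SE 0.08) for NPAS2, both clock factors, and 0.59 (SE 0.22) for SIM2, a factor of nervous system development.

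A further list held enzymes of the kynurenine pathway, which makes receptor ligands from tryptophan, and of other ligand formation. It had 4 rows of 12 genes (33.3%), 1 higher and 3 lower. Over all genes tested, the share with a row was 43.6%, with 22.4% higher and 21.1% lower. In the authors' deposited table HAAO, a dioxygenase late in the pathway, was at -1.12 (SE 0.13), the aminotransferase CCBL2 at -0.79 (SE 0.17) and kynureninase, KYNU, at 0.53 (SE 0.14). Among 12 genes of ADP-ribose turnover, P450 support and the ALDH3 family, 9 (75%) had a row, 4 higher and 5 lower. ALAS1, the first enzyme of haem synthesis, was at 1.05 (SE 0.09), the reductase CYB5R3 at -0.95 (SE 0.08) and ALDH3B1 at -1.29 (SE 0.22) in the authors' deposited table. Among 14 xenobiotic genes listed for other receptors, 3 (21.4%) had a row and all were lower. The authors' deposited table gives -0.99 (SE 0.16) for UGT2B7, a glucuronosyltransferase, -0.67 (SE 0.08) for the efflux pump ABCB1 and -0.40 (SE 0.18) for NR1I2, the pregnane X receptor.

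**Figure D4:**
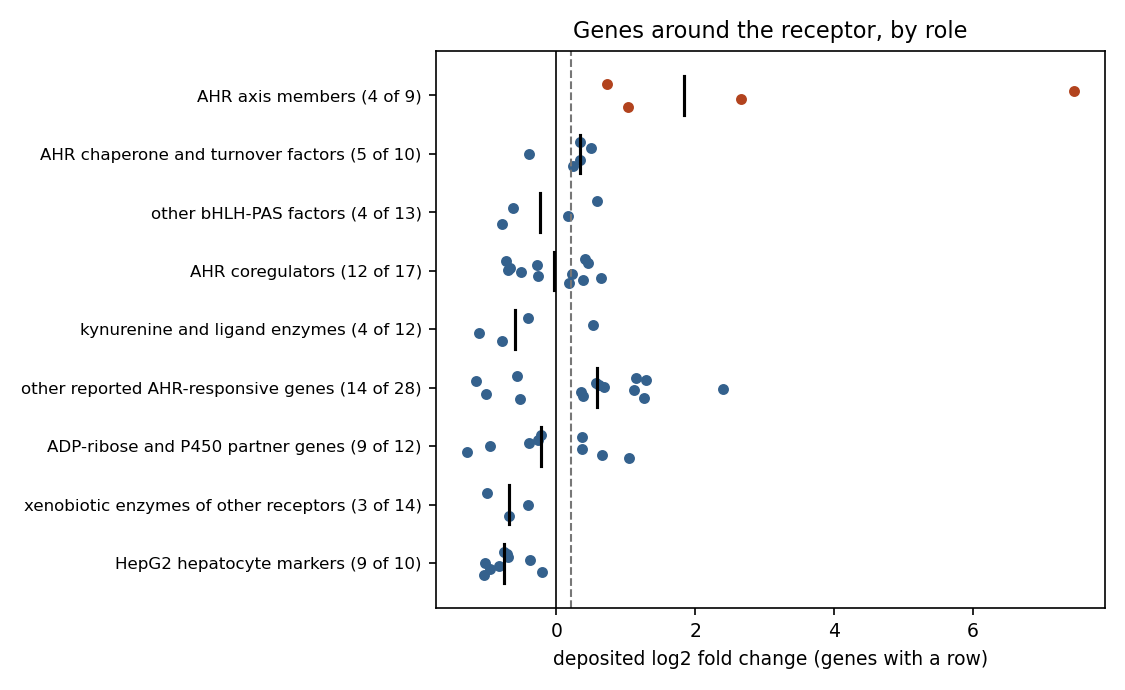
Log2 fold changes in the authors' deposited table (x axis) of the genes with a row on each list (y axis, with the number of rows and of genes listed); each point is a gene, black bars are list medians, the dashed line is the median of all rows (0.21) and the members are in red. The members with a row all lie above 0, the 9 hepatocyte markers all lie below it, and most other lists lie on both sides.

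Hepatocyte markers with a row moved the other way from the called members. Their levels were not set against a reference for the line. Of 10 markers, 9 had a row and all 9 were lower, where 43.6% of the genes tested had a row and 21.1% were lower. Their log2 fold changes ran from -1.04 to -0.21 and their mean normalized counts from 442.3 to 157429 in the authors' deposited table. The authors' deposited table lists a log2 fold change of -1.04 (SE 0.05) for AFP, the fetal albumin-like protein, and -0.96 (SE 0.05) for APOB, the core protein of lipoproteins. ALB had no row. Fewer cells expressing a marker and less of its RNA per cell cannot be told apart in such bulk libraries. The part of these marker changes in the members' values was not tested.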

How the data were processed

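Sample titles gave the groups and replicate numbers, and the design text gave the dose and time. STAR 2.7.0 and featureCounts, and hg19 and mm10 as builds with no stated role, are named in the submitters' processing notes. Per the labels' protocols, libraries were made with a non-directional kit. The columns are those of DESeq2 results, per the file headers. The level deposited by the authors is a signal, taken to be each gene's normalized count averaged over scaled libraries. The authors' deposited log2 fold change and SE are on the log2 scale and may be shrunken, which no header or label records. The median ratio of change over SE to the value that p corresponds to was 0.585 below a mean of 30. It was 0.990 at a mean of 1000 or more. Intervals from the SE and group means from the fold therefore may not match the p-values, above all at low level. The authors' deposited p-values and adjusted p-values are used as given, with 0.05 as the threshold.

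The table has no value per library, so no count model was fitted. The number of genes tested was recovered from the ranks and the ratios of adjusted to raw p-values, a step tested on simulated data. Intervals are 95% normal intervals from the SE. Members and lists (7 lists of 106 genes around the receptor, and hepatocyte markers) were chosen with earlier results of these data known. Named genes are the members with a row and, per list, up to 3 with the largest absolute change among genes of mean normalized count 50 or more. Likeness between patterns needs values per library and was not computed. Lists are described by counts and medians, with no list test. Promoters came from RefSeq (GRCh38.p14), with the most upstream start taken for each gene, and exon lengths from GENCODE 29. Both were matched by symbol, for 7 and 9 of the 9 members, and their build and gene models may differ from those behind the counts. Python 3.11.15, pandas 2.3.3 and scipy 1.17.1 were used. Alternatives were a stricter adjusted p, Bonferroni adjustment, centring, a level minimum and a fold of 1.5. The number of SEs that p corresponds to, multiplied by the SE, was also set beside each member's change. A few genes of these lists are not reported here by name.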

Additional observations from a re-analysis of the deposited data

How the results depend on the processing

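All 4 called members stayed called at an adjusted p under 0.001 and with Bonferroni adjustment. Subtracting the median log2 fold change of the called genes (0.21) could not turn their direction, since the smallest member value was 0.73. That median is over called genes only, 4493 higher and 4234 lower, so it need not measure an offset between the groups. A minimum mean normalized count of 50 leaves 3 of them, since CYP1A2 lies below it. The number at 2-fold or more, 3 as reported, was 2 with centring (AHR drops to 0.81 on the log2 scale), 2 with the level minimum and 4 at a fold of 1.5. The median log2 fold change of the members, 1.84, was 1.63 with centring and 1.03 with the level minimum, where CYP1A2 is left out. The number of SEs that the p-value corresponds to, multiplied by the SE, gave 12.9 for CYP1A2, against 7.46 as deposited. For AHR, TIPARP and CYP1A1 this product was within 0.05 of the deposited value. The p-value and SE of CYP1A2 do not match each other, so its product is not a second estimate of its fold. No paired analysis was possible because the deposited table gives no value per library, and for the same reason no library could be left out. With the depth per library unknown, the SE is the only measure of precision. CYP1A2, the member of lowest level, had an SE of 2.68, above the median of 0.88 for the 698 rows of like level.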

Other observations

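The genes that RefSeq types as protein-coding next to the called members on the chromosome, 3 on each side in RefSeq order, were looked up after the data were seen. Of 18 such genes 8 had a row in the authors' deposited table, 7 higher and 1 lower, a share close to the 43.6% of the genes tested that were called. By direction, 22.4% of the genes tested were higher and 21.1% lower. Beside CYP1A1 and CYP1A2, the decapping factor EDC3 had a log2 fold change of 0.67 (SE 0.10), the splicing kinase CLK3 of 0.23 (SE 0.09) and CSK, a kinase that restrains SRC, of -0.55 (SE 0.08) by the authors' deposited table, each closer to 0 than either P450. Beside TIPARP, 3 of 6 neighbours had a row. KCNAB1, a potassium channel subunit, stood at 1.62 (SE 0.48), SSR3, a subunit of the ER translocon complex, at 1.47 (SE 0.05) and the cyclin CCNL1 at 1.18 (SE 0.07) in the authors' deposited table, against 0.73 (SE 0.16) for TIPARP. Beside AHR, TSPAN13 was at 1.56 (SE 0.13) and the secretory disulfide isomerase AGR2 at 1.21 (SE 0.43) in the authors' deposited table. No test was made of these neighbours.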
